A study of Saccharomyces cerevisiae with 22 samples.

Results

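The genes described here are 8 genes of mitochondria-to-nucleus (retrograde) signalling in budding yeast. CIT2, DLD3, PYC1 and ATO3 are targets of the pathway, and RTG1, RTG2, RTG3 and MKS1 are its regulators. They were taken by systematic ID from a table of 7126 entries and all 8 passed the filter on low counts that left 6278 genes for testing. PolyA RNA was sequenced in 22 libraries of the laboratory strain W303. All cells grew in rich medium with 2% raffinose, received 2% galactose for 4 h and carried a multicopy 2µ plasmid. In 6 libraries (named PSD1 below) the plasmid held PSD1 behind the GAL1-10 promoter, and in 6 more (pdr3∆ PSD1) the same plasmid was in cells that lacked PDR3. In 5 libraries (V5-PSD1) that promoter drove PSD1 with a V5 tag, and in 5 (empty vector) the plasmid held no insert. The cells with the PDR3 deletion had no empty-plasmid counterpart of the same genotype, so the deletion can be compared with PSD1 at equal plasmid, and with the empty vector only together with the plasmid.

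Cells signal a loss of mitochondrial function to the nucleus through the Rtg proteins. Rtg2 is a cytosolic protein that binds Mks1 and relieves its block, and Rtg1 and Rtg3 are helix-loop-helix factors that then enter the nucleus as a pair and bind a short site known as the R box. The genes they raise make citrate, glutamate precursors and other intermediates outside a failing TCA cycle, and CIT2 is the usual reporter of the pathway. The labels do not say whether replicates were separate cultures, so p-values measure the spread between these samples, which may be technical. In such bulk RNA, fewer cells that express a gene and less RNA per cell cannot be told apart.

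Total counts ran from 8.15 to 20.8 × 10⁶ per library, with a median of 13.5 × 10⁶. The lowest count of any of the 8 genes in a library was 130 (RTG1). PSD1 mRNA averaged 15253 ± 6041 CPM (normalised counts, scaled to library size) in PSD1, 18146 ± 4805 CPM in pdr3∆ PSD1, 24680.2 ± 4199 CPM in V5-PSD1 and 431 ± 143 CPM in the empty vector (SD, n = 6, 6, 5 and 5). PDR3 mRNA averaged 188 ± 31.6 CPM in PSD1, 0.142 ± 0.0644 CPM in pdr3∆ PSD1, 81.8 ± 9.49 CPM in V5-PSD1 and 84.9 ± 7.75 CPM in the empty vector. The lowest PSD1 library was at 8094 CPM of PSD1 mRNA and the highest empty-vector library at 603 CPM. The raised PSD1 mRNA and the loss of PDR3 mRNA were as labelled. These values do not tell the V5-tagged plasmid from the untagged one. One measure of the libraries moved with the groups. The slope of log2 CPM on log2 gene length, taken on each library's deviation from the mean of all libraries over 5795 genes, ran from −0.23 to 0.03 in PSD1, from −0.07 to 0.04 in pdr3∆ PSD1, from −0.06 to 0.11 in V5-PSD1 and from 0.04 to 0.15 in the empty vector. PSD1 replicates 1 and 2 had the steepest slopes, at −0.23 and −0.15, so long genes had relatively fewer reads in these libraries.

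Rtg1 and Rtg3 bind the letters GTCAC, which were searched on both strands in the 600 bases before each start codon of the R64 reference genome (the sacCer3 sequence). CIT2 held 3 matches, DLD3, ATO3 and RTG3 held 2 each, PYC1, RTG1 and RTG2 held 1 each, and MKS1 held 0. Of 6005 promoters of that length, 49.2% held at least 1 match, 14.7% at least 2 and 3.6% at least 3. The stretches with the matches of the targets are shown because these are the letters through which the factors are known to act. Each is read 5′ to 3′ towards its gene, from the reference genome and not from these libraries, with GTCAC or its reverse complement in capitals. The windows are chrIII:122509-122688 (minus strand) for CIT2, chrV:16155-16234 (plus strand) for DLD3, chrVII:384676-384735 (plus strand) for PYC1 and chrIV:1242182-1242231 (minus strand) for ATO3.
CIT2: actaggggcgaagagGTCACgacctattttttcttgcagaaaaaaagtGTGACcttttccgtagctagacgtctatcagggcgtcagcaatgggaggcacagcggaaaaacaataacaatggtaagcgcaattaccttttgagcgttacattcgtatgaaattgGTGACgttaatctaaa
DLD3: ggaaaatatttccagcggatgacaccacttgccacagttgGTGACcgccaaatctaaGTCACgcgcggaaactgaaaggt
PYC1: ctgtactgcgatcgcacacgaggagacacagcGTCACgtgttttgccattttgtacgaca
ATO3: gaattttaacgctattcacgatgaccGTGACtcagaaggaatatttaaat
The CIT2 matches began 345, 312 and 196 bases before the start codon, and the DLD3 matches lay closer, at 160 and 143 bases. The single PYC1 match was at 488 bases. The ATO3 window holds the match at 174 bases, and its other match was at 67 bases. The letters of that window also overlap TGACTC, the core site of Gcn4 (the activator of amino acid synthesis genes), which 15.3% of promoters held on either strand. A match is a description of the letters and does not show that a factor was bound.

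The 8 genes differed in level and in how much they varied. On the FPKM scale, which corrects for gene length, PYC1 was the most abundant with a median of 441 over the 22 libraries, followed by CIT2 at 135, DLD3 at 110.5 and RTG2 at 109. RTG1 had a median of 67.3 FPKM, MKS1 57.1, ATO3 52.5 and RTG3 49.6. RTG2 varied least, with a highest library 1.12 times its lowest, and ATO3 varied most, at 7.58 times. The group means of each gene can be placed in order, but in 24 of 24 pairs of neighbours in that order the 2 groups' ranges overlapped.

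CIT2 (YCR005C, chromosome III, 120946 to 122328, minus strand) encodes the peroxisomal citrate synthase. Its lowest, median and highest libraries were 89.7, 158 and 219.7 CPM in PSD1 and 117, 161 and 237 CPM in pdr3∆ PSD1. V5-PSD1 libraries had 183, 236, 188, 208 and 163 CPM, and empty-vector libraries had 195, 245, 335, 189 and 123 CPM. All 4 groups overlapped, and the empty vector held both a library at 123 CPM and the highest of all, at 335 CPM. No group with a PSD1 plasmid had a CIT2 mean above that of the empty vector. The log2 fold change over the empty vector was −0.42 ± 0.20 (SE) in PSD1, with a 95% interval from −0.85 to 0.00 and an adjusted p of 0.0836 (edgeR's quasi-likelihood test). It was −0.30 ± 0.20 in pdr3∆ PSD1 (adjusted p = 0.233) and −0.11 ± 0.21 in V5-PSD1 (adjusted p = 0.811). The PSD1 value passed the threshold at −0.55 without empty-vector replicate 5 (adjusted p = 0.0331) and at −0.53 without PSD1 replicate 6 (adjusted p = 0.0371). Without empty-vector replicate 3, the highest CIT2 library, it was −0.27 (adjusted p = 0.273). Within library series 5 alone it was −0.61 (adjusted p = 0.0958), and within series 6 alone −0.20 (adjusted p = 0.588).

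DLD3 (YEL071W, chromosome V, 16355 to 17845, plus strand) encodes a cytosolic enzyme of D-2-hydroxyglutarate and D-lactate metabolism and was the target that differed most clearly. PSD1 libraries ran from 112 CPM through a median of 137 to 193 CPM, and pdr3∆ PSD1 libraries from 115 through 139 to 202 CPM. V5-PSD1 libraries had 139, 201, 197, 201 and 172 CPM, and empty-vector libraries had 151, 225, 296, 219 and 183 CPM. In each of PSD1 and pdr3∆ PSD1, 4 of 6 libraries lay below every empty-vector library, and the highest library of each lay within the empty-vector range. DLD3 fell in PSD1 to 0.664 of its empty-vector level (log2 fold change −0.59 ± 0.17, adjusted p = 0.00557); an active pathway is known to raise it. It also fell in pdr3∆ PSD1 (−0.52 ± 0.17, adjusted p = 0.0144). These 2 comparisons share the 5 empty-vector libraries. In V5-PSD1 its change of −0.23 ± 0.18 did not pass (adjusted p = 0.514). Set directly against PSD1, DLD3 differed by 0.36 ± 0.17 in V5-PSD1 (adjusted p = 0.0973). That difference passed within series 6 alone (0.46, adjusted p = 0.0188), without PSD1 replicate 2 (0.46, adjusted p = 0.0373) or V5-PSD1 replicate 1 (0.45, adjusted p = 0.0391). It also passed in fits that take account of the order of library numbers, given with ATO3. The PSD1 call held when each library of either group was left out, with adjusted p up to 0.0259, and within library series 5 alone the change was −0.65 (adjusted p = 0.101) and within series 6 alone −0.56 (adjusted p = 0.00428). Without empty-vector replicate 3, the highest DLD3 library, the pdr3∆ PSD1 change was −0.39 (adjusted p = 0.0626).

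PYC1 (YGL062W, chromosome VII, 385196 to 388732, plus strand) encodes a cytosolic pyruvate carboxylase, which makes oxaloacetate. Its lowest, median and highest libraries were 1084, 1438 and 1868 CPM in PSD1 and 1427, 1542 and 1682 CPM in pdr3∆ PSD1. V5-PSD1 libraries had 1579, 1490.2, 1762, 1656 and 1788 CPM, and empty-vector libraries had 1781, 1994, 1533, 1597 and 1411 CPM. The groups overlapped, and the lowest PYC1 values of all, 1160.1 and 1084 CPM, were in PSD1 replicates 1 and 2. The change in PSD1 was −0.23 ± 0.12, with an interval from −0.48 to 0.01 (adjusted p = 0.0889). It was −0.12 ± 0.12 in pdr3∆ PSD1 (adjusted p = 0.421) and −0.01 ± 0.12 in V5-PSD1 (adjusted p = 0.985). The PSD1 value was −0.06 without PSD1 replicates 1 and 2 (adjusted p = 0.623), and 0.01 with the trend on gene length removed (limma on log2 CPM, adjusted p = 0.915). It passed at −0.35 without PSD1 replicate 3 (adjusted p = 0.00671) and at −0.30 without empty-vector replicate 5 (adjusted p = 0.0433).

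ATO3 (YDR384C, chromosome IV, 1241204 to 1242031, minus strand) encodes a plasma membrane protein linked to ammonium export. Its lowest, median and highest libraries were 22.9, 36.1 and 97.2 CPM in PSD1 and 17.2, 37.5 and 119 CPM in pdr3∆ PSD1. V5-PSD1 libraries had 35.9, 43.7, 128, 43.0 and 42.3 CPM, and empty-vector libraries had 24.3, 41.2, 90.9, 39.5 and 49.5 CPM. One library of each group stood far above the rest of that group, and the others lay between 17.2 and 49.5 CPM. The changes over the empty vector were −0.13 ± 0.43 in PSD1 (adjusted p = 0.812), −0.02 ± 0.43 in pdr3∆ PSD1 (adjusted p = 0.980) and 0.21 ± 0.45 in V5-PSD1 (adjusted p = 0.836). The interval for PSD1 ran from −1.03 to 0.77. With sets of neighbouring library numbers as a block the changes were −0.14 in PSD1 (adjusted p = 0.337), −0.08 in pdr3∆ PSD1 (adjusted p = 0.597) and 0.22 in V5-PSD1 (adjusted p = 0.329).

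**Figure D1:**
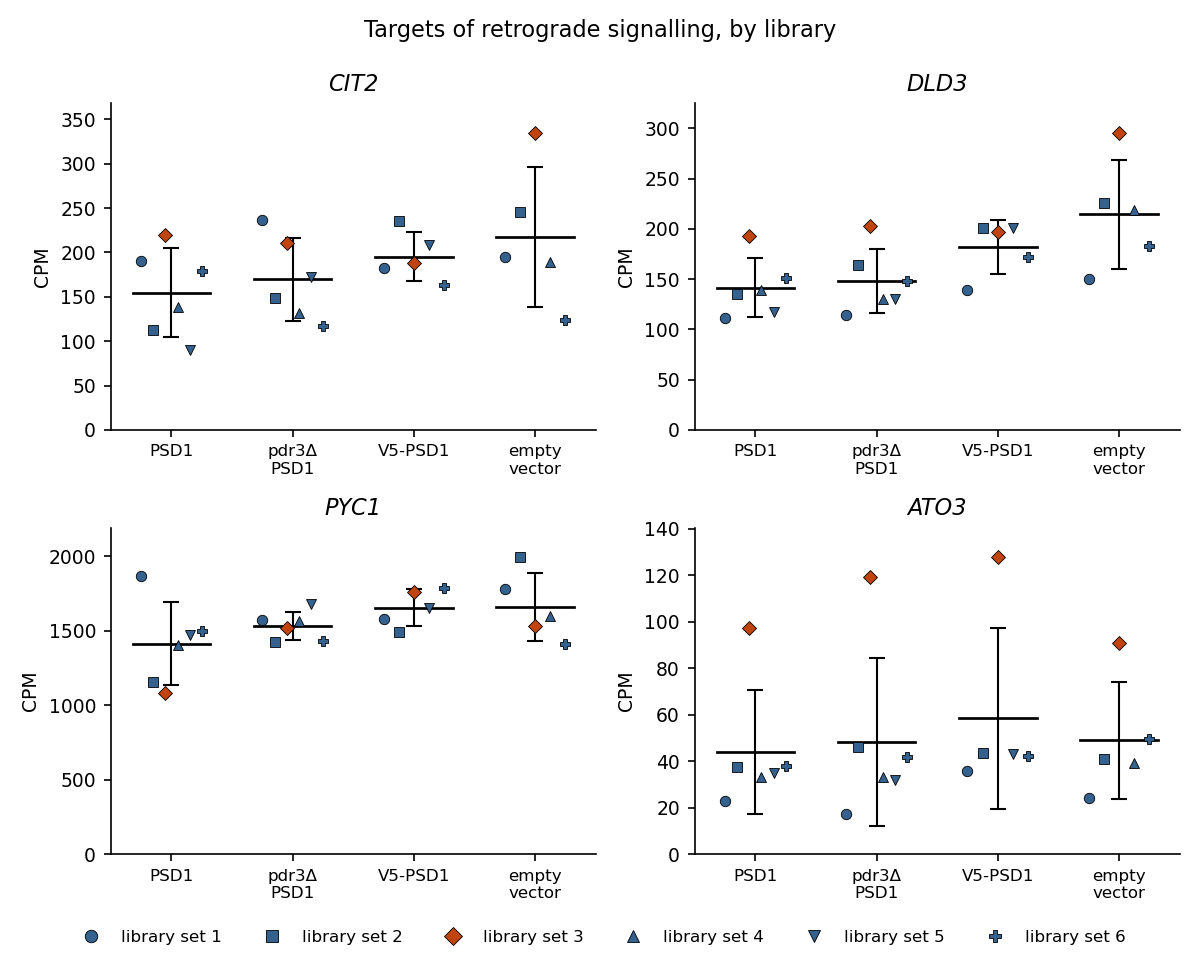
Normalised read counts (CPM, linear axes from 0) of CIT2, DLD3, PYC1 and ATO3 in each of the 22 libraries. Points are libraries with a shape for each library set, horizontal lines are group means and bars are the SD (n = 6, 6, 5 and 5), and the orange diamonds of library set 3 are the highest ATO3 library of every group, at 90.9 to 128 CPM.

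The 4 high ATO3 libraries had neighbouring library numbers in the labels. The libraries were put here into 6 library sets by library number, and sets 1, 2, 3 and 6 held 1 library of every group. PSD1 replicate 6 was placed in set 6 although its number stands apart from the others of that set, and the labels do not say what a run of numbers stands for. PSD1 replicate 2, pdr3∆ PSD1 replicate 2, V5-PSD1 replicate 3 and empty-vector replicate 3 are the 4 libraries of set 3. ATO3 in set 3 was 2.79 times the median of the other sets in PSD1, 3.58 times in pdr3∆ PSD1, 3.0 times in V5-PSD1 and 2.25 times in the empty vector. The sets held 91.1% of the variation in ATO3 (sum of squares of log2 CPM), a share that 5 of 6278 genes reached or passed, and the 4 groups held 4.60%. For MKS1 the sets held 83.9%, with 30 genes at or above that share, against a median of 22.6% over all genes. Each set lies within 1 library series, and the series alone held 51.6% for MKS1 and 4.96% for ATO3. The median share of the series over all genes was 2.02%. DLD3 had 48.5% of its variation between sets and 43.9% between groups, and the median share of the groups over all genes was 39.3%. There were 6 sets and 4 groups, so the shares of sets and groups are not on the same footing. Set 3 held the highest DLD3 library in PSD1, pdr3∆ PSD1 and the empty vector. With the library set as a block, DLD3 was higher in V5-PSD1 than in PSD1 (0.37, adjusted p = 0.00267), and ATO3 passed there too (0.36, adjusted p = 0.0250). Without set 3 the DLD3 difference was 0.45 (adjusted p = 0.0209), while the ATO3 difference was 0.33 and did not pass (adjusted p = 0.280). With PSD1 replicate 6 given a set of its own, a choice made after seeing the data, the difference between V5-PSD1 and PSD1 was 0.42 for DLD3 (adjusted p = 0.00217) and 0.34 for ATO3 (adjusted p = 0.0494). In that fit CIT2 and PYC1 were also lower in PSD1 than in the empty vector (−0.60, adjusted p = 0.0180, and −0.29, adjusted p = 0.0497). With the 6 sets as a block neither passed, at −0.43 for CIT2 (adjusted p = 0.0866) and −0.26 for PYC1 (adjusted p = 0.0603). Neither passed without set 3, at −0.38 (adjusted p = 0.159) and −0.21 (adjusted p = 0.154). What the sets differ in was not tested.

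Of the regulators, RTG2 and MKS1 varied little, RTG3 differed slightly in 1 comparison, and RTG1 spread more widely between libraries. RTG2 (YGL252C, chromosome VII, 25718 to 27484, minus strand), the activator that binds Mks1, averaged 185 ± 7.48 CPM in PSD1, 187 ± 4.83 CPM in pdr3∆ PSD1, 189.6 ± 6.87 CPM in V5-PSD1 and 183 ± 5.70 CPM in the empty vector. MKS1 (YNL076W, chromosome XIV, 483556 to 485310, plus strand), the inhibitor, averaged 98.8 ± 7.94 CPM in PSD1, 98.8 ± 5.98 CPM in pdr3∆ PSD1, 96.8 ± 4.66 CPM in V5-PSD1 and 101 ± 7.36 CPM in the empty vector. Against the empty vector, RTG2 lay between −0.07 and 0.10 in PSD1 and between −0.04 and 0.14 in V5-PSD1 on the log2 scale, and MKS1 lay between −0.11 and 0.09 in PSD1 and between −0.16 and 0.05 in V5-PSD1.

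RTG3 (YBL103C, chromosome II, 22076 to 23536, minus strand) encodes the larger factor of the R-box pair. Its lowest, median and highest libraries were 63.2, 74.4 and 81.9 CPM in PSD1 and 57.7, 63.0 and 71.3 CPM in pdr3∆ PSD1. V5-PSD1 libraries had 60.6, 66.1, 74.8, 68.6 and 71.8 CPM, and empty-vector libraries had 71.8, 73.0, 70.8, 69.4 and 71.3 CPM. In pdr3∆ PSD1, 5 of 6 libraries lay below the whole, tight empty-vector range, and RTG3 fell by 0.18 on the log2 scale (SE 0.06, adjusted p = 0.0289). Against PSD1 it differed by −0.20 ± 0.06 in pdr3∆ PSD1, with an unadjusted p of 0.00330 and an adjusted p of 0.329. The empty-vector call was lost, with adjusted p up to 0.0685, without empty-vector replicate 1, 2 or 3 (changes of −0.17, −0.16 and −0.17) or without pdr3∆ PSD1 replicate 3 or 6 (−0.15 and −0.17). It was also lost within each library series, at −0.27 in series 5 and −0.09 in series 6. RTG1 (YOL067C, chromosome XV, 201985 to 202518, minus strand), its partner, had PSD1 libraries of 11.5, 28.8 and 41.1 CPM at the lowest, median and highest, and pdr3∆ PSD1 libraries of 26.0, 33.1 and 38.1 CPM. V5-PSD1 libraries had 25.8, 25.9, 41.0, 34.5 and 34.9 CPM, and empty-vector libraries had 33.2, 31.2, 31.9, 28.4 and 31.8 CPM. PSD1 libraries lay both above and below the empty-vector range, with the lowest, at 11.5 and 16.5 CPM, in replicates 1 and 2. The change in PSD1 was −0.21 ± 0.23 (adjusted p = 0.454), and 0.15 without these 2 libraries (adjusted p = 0.474).

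**Figure D2:**
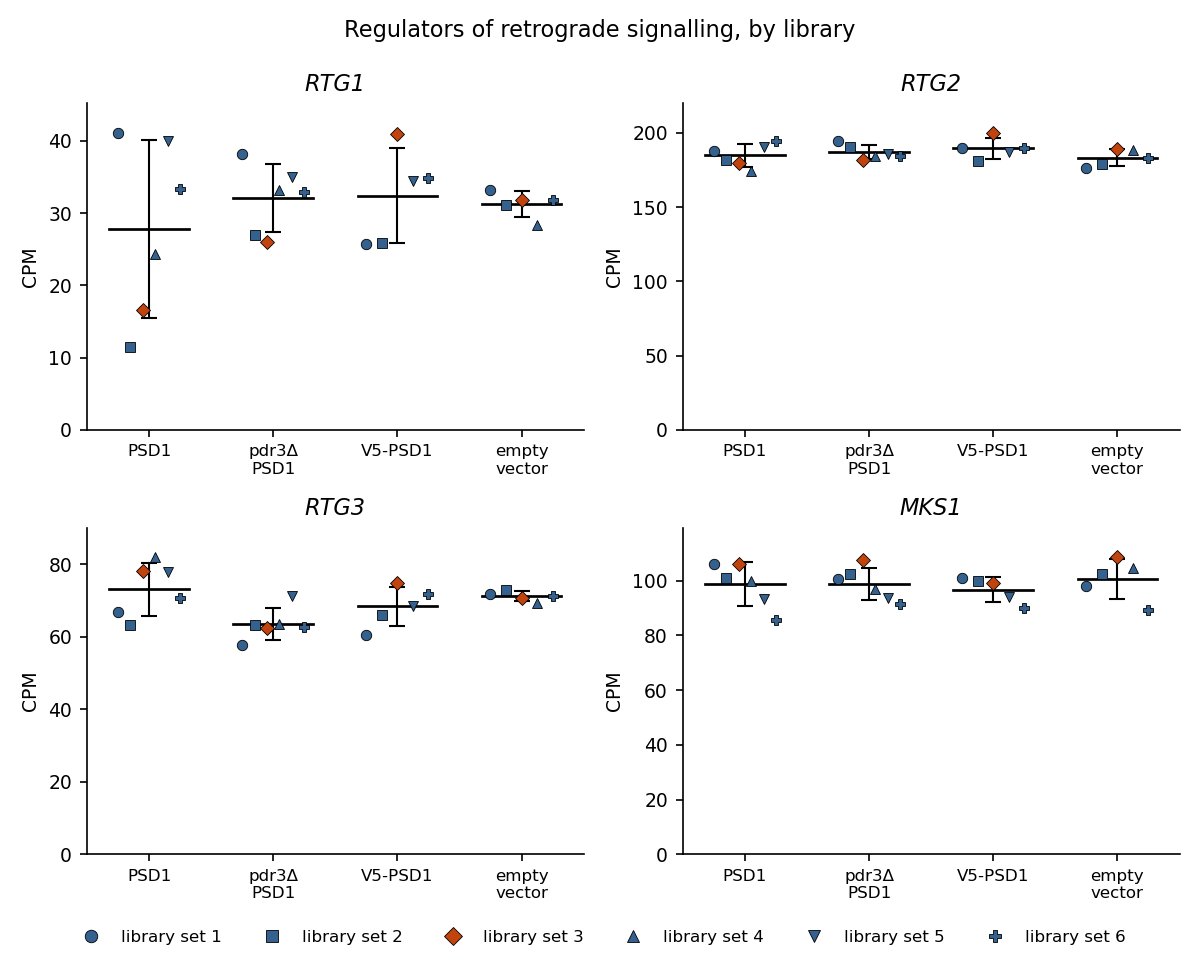
Normalised read counts (CPM, linear axes from 0) of RTG1, RTG2, RTG3 and MKS1 in each of the 22 libraries, with points by library set, lines at group means and SD bars (n = 6, 6, 5 and 5). RTG2 and MKS1 have means of 183 to 189.6 and 96.8 to 101 CPM, RTG3 is lowest in pdr3∆ PSD1 at 63.5 CPM, and RTG1 spreads from 11.5 to 41.1 CPM in PSD1.

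Counted over the 8 genes, PSD1 against the empty vector gave 0 higher and 1 lower, where 29.7% of all genes tested were higher and 26.9% lower. The count of 0 higher was also 0 with DESeq2, which called DLD3 and CIT2 lower, CIT2 only just (−0.44, adjusted p = 0.04999). In edgeR, DLD3 was the 1 gene of the 8 with an unadjusted p under 0.05. In pdr3∆ PSD1 against the empty vector 0 were higher and 2 lower, beside 26.1% and 21.4% of all genes, with 2 at an unadjusted p under 0.05 and the same 2 called by DESeq2. In V5-PSD1 against the empty vector none of the 8 passed in edgeR, at an unadjusted p under 0.05 or in DESeq2, beside 2.53% higher and 0.494% lower over all genes. Between pdr3∆ PSD1 and PSD1 none passed in edgeR or DESeq2 and 1 (RTG3) had an unadjusted p under 0.05, beside 0.0159% higher and 0.398% lower over all genes. Between V5-PSD1 and PSD1 none passed in edgeR or DESeq2 and 1 (DLD3) had an unadjusted p under 0.05, beside 20.1% higher and 20.3% lower. The median log2 fold change of the 8 was −0.17 in PSD1, −0.07 in pdr3∆ PSD1 and −0.03 in V5-PSD1 against the empty vector, and the median of all genes was 0.02 in each. It was 0.09 between pdr3∆ PSD1 and PSD1 and 0.24 between V5-PSD1 and PSD1, with medians of all genes at 0.00 and −0.01. An unadjusted p under 0.05 was held by 61.6% of all genes in PSD1, 53.9% in pdr3∆ PSD1 and 17.3% in V5-PSD1 against the empty vector. The share was 5.27% between pdr3∆ PSD1 and PSD1 and 48.5% between V5-PSD1 and PSD1. In none of the 5 comparisons did any of the 8 have groups whose libraries did not overlap. Over all genes, libraries did not overlap for 18.4% (higher) and 15.7% (lower) in PSD1, 16.5% and 13.1% in pdr3∆ PSD1, and 3.78% and 1.23% in V5-PSD1, each against the empty vector. Those shares were 0.0637% and 0.366% between pdr3∆ PSD1 and PSD1, and 10.1% and 9.84% between V5-PSD1 and PSD1. Counted over both directions, calls among the 8 were no more frequent than over all genes in any comparison. The comparisons share libraries: 3 share the empty vector and 3 include PSD1.

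**Figure D3:**
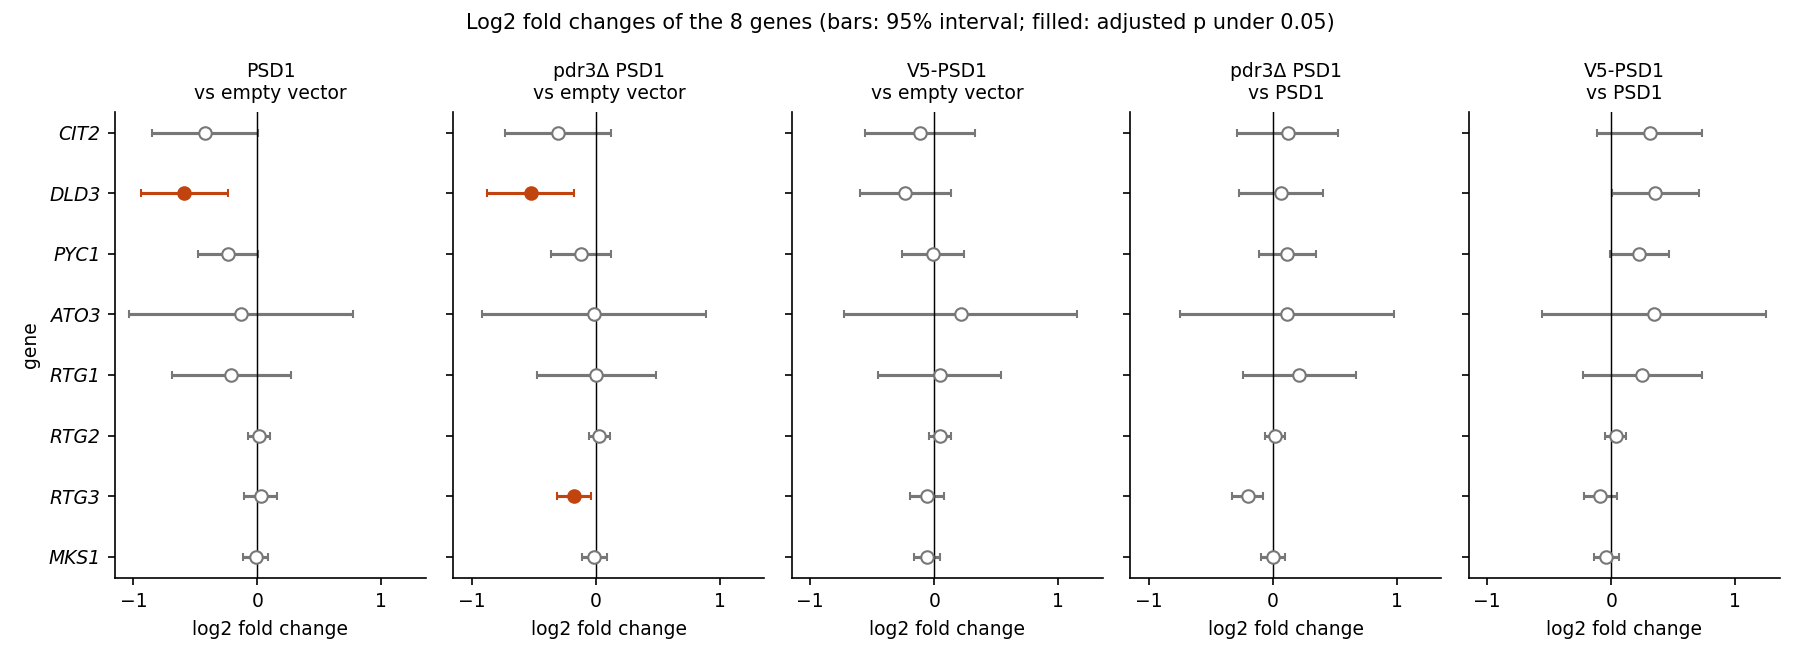
Log2 fold changes (points) with 95% intervals (bars) of the 8 genes, 1 row per gene, in the 5 comparisons named above the panels. Filled points passed an adjusted p of 0.05 and are DLD3 in PSD1 (−0.59) and pdr3∆ PSD1 (−0.52) and RTG3 in pdr3∆ PSD1 (−0.18), each against the empty vector, while the intervals of RTG2 and MKS1 are narrow around 0.

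Each target has a paralog that serves a related step, and their ratio can be taken within a library. CIT1 itself comes under Rtg control when respiration falls, so it is not a neutral reference for CIT2. CIT1, the mitochondrial citrate synthase, fell in PSD1 (−0.48 ± 0.14, adjusted p = 0.00662) and in pdr3∆ PSD1 (−0.39 ± 0.14, adjusted p = 0.0282). The ratio of CIT2 to CIT1 on the FPKM scale had medians of 0.207 in PSD1, 0.219 in pdr3∆ PSD1, 0.190 in V5-PSD1 and 0.198 in the empty vector, and the ranges of all 4 groups overlapped. DLD2, the mitochondrial relative of DLD3, was at 0.06 ± 0.05 in PSD1 (adjusted p = 0.349), and the ratio of DLD3 to DLD2 had medians of 0.748 in PSD1, 0.766 in pdr3∆ PSD1, 1.04 in V5-PSD1 and 1.16 in the empty vector. ATO2 was at 0.27 ± 0.21 (adjusted p = 0.269), with ATO3 to ATO2 medians of 0.793 in PSD1, 0.823 in pdr3∆ PSD1, 0.868 in V5-PSD1 and 0.950 in the empty vector. PYC2, the other pyruvate carboxylase, fell in PSD1 (−0.48 ± 0.09, adjusted p = 0.000140) and in pdr3∆ PSD1 (−0.37 ± 0.09, adjusted p = 0.00196), and PYC1 to PYC2 had medians of 4.11 in PSD1, 4.10 in pdr3∆ PSD1, 3.71 in V5-PSD1 and 3.47 in the empty vector. With the length trend removed PYC2 was at −0.24 in PSD1 and −0.20 in pdr3∆ PSD1. PYC1 and PYC2 share 85.5% of their aligned coding bases and a run of 200 identical bases, so reads can be split between them and their ratio is uncertain. The other pairs shared 74.5% (CIT2 and CIT1), 67.2% (DLD3 and DLD2) and 63.7% (ATO3 and ATO2). For every pair the ratios of PSD1 and the empty vector overlapped in range. DLD3 to DLD2 ran from 0.560 to 0.883 in PSD1 and from 0.781 to 1.53 in the empty vector. Of the 7 paralogs tested, 2 fell and 0 rose in PSD1, beside 26.9% of all genes lower and 29.7% higher. In pdr3∆ PSD1 the CIT1 call was lost, with adjusted p up to 0.0674, without any 1 of empty-vector replicates 1 and 5 and pdr3∆ PSD1 replicates 1, 2, 5 and 6.

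The genes that make 2-oxoglutarate in the TCA cycle come under Rtg control when respiration falls. Of CIT1, ACO1 (aconitase), IDH1 and IDH2 (both subunits of isocitrate dehydrogenase), 0 rose and 3 fell in PSD1, with a median of −0.45. Over all genes, 29.7% rose and 26.9% fell. ACO1 changed by −0.49 ± 0.17 (adjusted p = 0.0224) and IDH2 by −0.42 ± 0.08 (adjusted p = 0.000285), and IDH1 was at −0.18 ± 0.15 (adjusted p = 0.302). The ACO1 call was lost, with adjusted p up to 0.0626, without empty-vector replicate 1 or without PSD1 replicate 1 or 2. Without both of these PSD1 libraries ACO1 was at −0.26 (adjusted p = 0.200) and CIT1 at −0.37 (adjusted p = 0.0572). In pdr3∆ PSD1 the same count was 0 and 3, beside 26.1% and 21.4% of all genes. There IDH2 was at −0.43 ± 0.08 (adjusted p = 0.000323) and ACO1 at −0.51 ± 0.17 (adjusted p = 0.0211, or 0.0570 without empty-vector replicate 1). In V5-PSD1 none of the 4 passed in edgeR, at an unadjusted p under 0.05 or in DESeq2, and IDH1 was at 0.27 ± 0.15. Against PSD1, 4 of 4 were higher in V5-PSD1, from IDH1 at 0.45 ± 0.15 (adjusted p = 0.0184) to CIT1 at 0.58 ± 0.14 (adjusted p = 0.00267). Over all genes, 20.1% were higher and 20.3% lower in that comparison. The IDH1 call was lost without V5-PSD1 replicate 1, with an adjusted p of 0.0696. Without PSD1 replicates 1 and 2, ACO1 was at 0.35 (adjusted p = 0.114) and IDH1 at 0.36 (adjusted p = 0.109), while CIT1 (0.47, adjusted p = 0.0260) and IDH2 (0.43, adjusted p = 0.00170) still passed.

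Of 8 further regulators, LST8 stood apart from the rest. Lst8 is a subunit of both TOR complexes and is known as a negative regulator of retrograde signalling. LST8 libraries ran from 142 through a median of 156 to 176 CPM in PSD1, and from 127 through 155 to 175 CPM in pdr3∆ PSD1. V5-PSD1 libraries had 123, 127, 117, 133 and 125 CPM, and empty-vector libraries had 81.8, 79.5, 79.6, 84.3 and 82.7 CPM. Every library with a PSD1 plasmid lay above every empty-vector library, and every V5-PSD1 library lay below every PSD1 library. LST8 rose over the empty vector by 0.93 ± 0.07 in PSD1 (adjusted p = 4.37e-09), by 0.90 ± 0.07 in pdr3∆ PSD1 (adjusted p = 1.56e-08) and by 0.61 ± 0.07 in V5-PSD1 (adjusted p = 1.17e-05). It was lower in V5-PSD1 than in PSD1 (−0.31 ± 0.07, adjusted p = 0.00114), and its rise in PSD1 was 0.77 with the length trend removed. Of the 8 regulators 3 rose and 3 fell in PSD1, beside 29.7% and 26.9% of all genes. BMH1 and BMH2, near-identical 14-3-3 genes whose products hold Mks1 and whose reads may be split, rose by 0.26 ± 0.08 and 0.26 ± 0.06, and were at 0.08 and 0.09 with the length trend removed. KOG1, TOR1 and TOR2, long genes of the TOR complexes, fell by 0.38, 0.34 and 0.19 on the log2 scale in PSD1, but with the length trend removed they were at −0.06, 0.11 and 0.26, so TOR1 and TOR2 change sign. In pdr3∆ PSD1 2 of the 8 rose and 2 fell, beside 26.1% and 21.4% of all genes. BMH2 was at 0.22 ± 0.06, TOR1 at −0.34 ± 0.08 and KOG1 at −0.23 ± 0.08. With the length trend removed none of these 3 passed there, with BMH2 at 0.09, TOR1 at −0.02 and an adjusted p of 0.947 for KOG1. Without empty-vector replicate 1 or 2 or pdr3∆ PSD1 replicate 1 or 2, the KOG1 call was lost (adjusted p up to 0.0554).

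**Figure D4:**
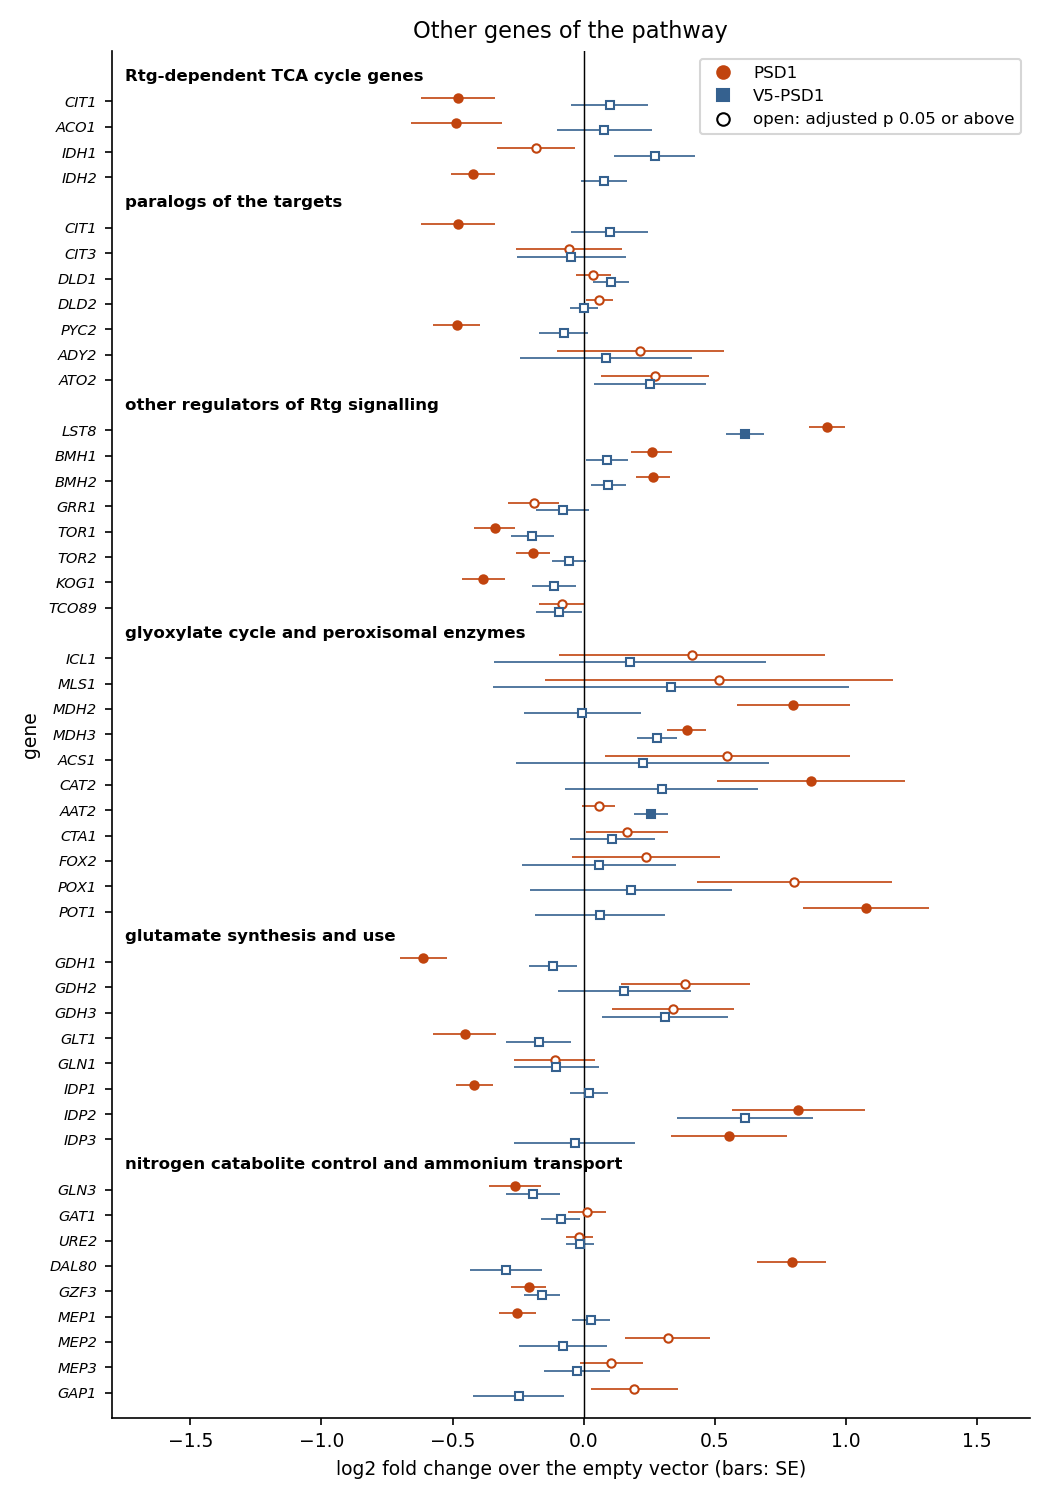
Log2 fold changes over the empty vector (horizontal axis, bars are the SE) of the 6 lists of related genes, with orange circles for PSD1, blue squares for V5-PSD1 and filled symbols for an adjusted p under 0.05. CIT1 stands in 2 lists. The TCA cycle genes lie left of 0 in PSD1 and near or right of 0 in V5-PSD1, and LST8 lies furthest right among the regulators, at 0.93 and 0.61.

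Cit2 takes part in the glyoxylate cycle, which runs partly in the peroxisome, where yeast also oxidises fatty acids. Of 11 enzymes of the cycle and the peroxisome tested in PSD1, 4 rose and 0 fell, with a median of 0.51, beside 29.7% of all genes higher and 26.9% lower. POT1 (peroxisomal thiolase) rose by 1.08 ± 0.24 (adjusted p = 0.000773), MDH2 (cytosolic malate dehydrogenase) by 0.80 ± 0.22, MDH3 (peroxisomal malate dehydrogenase) by 0.39 ± 0.07 and CAT2 (carnitine acetyltransferase) by 0.87 ± 0.36 (adjusted p = 0.0456). The CAT2 call was lost, with adjusted p up to 0.111, without empty-vector replicate 2, 3, 4 or 5 or PSD1 replicate 3, 4 or 6, and CAT2 was at 0.57 with PSD1 replicate 6 in a set of its own (adjusted p = 0.0516) and 0.54 in series 5 alone (adjusted p = 0.478). ICL1 and MLS1, isocitrate lyase and malate synthase of the glyoxylate cycle itself, were at 0.41 ± 0.51 and 0.51 ± 0.66 and did not pass. In pdr3∆ PSD1 4 rose and 0 fell, beside 26.1% and 21.4% of all genes, with POX1 (acyl-CoA oxidase) at 1.17 ± 0.37, POT1 at 1.04 ± 0.24, MDH2 at 0.61 ± 0.22 and MDH3 at 0.34 ± 0.07. One library, pdr3∆ PSD1 replicate 3, stood apart, with POX1 at 79.98 CPM against 17.3 to 24.9 CPM in the other 5 libraries of its group, POT1 at 100.1 against 35.0 to 47.2 CPM, and CAT2 at 249.8 against 61.3 to 142 CPM. Without it POX1 was at 0.61 and lost its call (adjusted p = 0.0778), and POT1 was at 0.72 (adjusted p = 0.00339). The MDH2 call was lost without empty-vector replicate 1, 2 or 5 or pdr3∆ PSD1 replicate 2 (adjusted p up to 0.0855). In V5-PSD1 edgeR called 1, AAT2, the aspartate aminotransferase shared by cytosol and peroxisome, at 0.26 ± 0.07 (adjusted p = 0.0343). It was lost, with adjusted p up to 0.124, without empty-vector replicate 2, 3, 4 or 5 or V5-PSD1 replicate 1, 2 or 4. DESeq2 called AAT2 and also MDH3 (0.27, adjusted p = 0.0228), which edgeR had at 0.28 ± 0.08 (adjusted p = 0.0546). Against PSD1, 1 of the 11 was higher and 2 were lower in V5-PSD1, beside 20.1% and 20.3% of all genes. The lower ones were POT1 (−1.01 ± 0.24, adjusted p = 0.00213) and MDH2 (−0.80 ± 0.22, adjusted p = 0.00555). AAT2 was higher (0.20, adjusted p = 0.0149), and that call was lost without V5-PSD1 replicate 1 or 4 (adjusted p up to 0.0515).

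Genes of glutamate metabolism, the end product that the pathway serves, moved both ways. Of 8 tested in PSD1, 2 rose and 3 fell, beside 29.7% and 26.9% of all genes. GDH1, the main NADPH-dependent glutamate dehydrogenase, fell to 918 ± 108 CPM in PSD1 and 840.0 ± 112 CPM in pdr3∆ PSD1, was at 1280.4 ± 91.7 CPM in V5-PSD1, and was at 1390.3 ± 115 CPM in the empty vector. The GDH1 changes were −0.61 ± 0.09 in PSD1 (adjusted p = 9.49e-06) and −0.74 ± 0.09 in pdr3∆ PSD1 (adjusted p = 1.95e-06). GLT1, glutamate synthase, changed by −0.45 ± 0.12 in PSD1, and by −0.06 with the length trend removed. IDP2, the cytosolic isocitrate dehydrogenase, rose by 0.82 ± 0.25 (adjusted p = 0.00943), and its peroxisomal relative IDP3 by 0.55 ± 0.22 (adjusted p = 0.0388). The IDP3 call was lost, with adjusted p up to 0.105, without empty-vector replicate 2, 3 or 4 or PSD1 replicate 3, 4, 5 or 6. In pdr3∆ PSD1 the count was again 2 and 3, beside 26.1% and 21.4% of all genes. There IDP3 was at 0.80 ± 0.22, IDP2 at 0.73 ± 0.25 and GLT1 at −0.43 ± 0.12. The IDP2 call was lost without empty-vector replicate 2 or 5 or pdr3∆ PSD1 replicate 3 (adjusted p up to 0.0923). IDP2 was at 0.48 without that last library, and GLT1 at −0.14 with the length trend removed (limma, adjusted p = 0.0462). In V5-PSD1 none passed in edgeR or DESeq2 and 1 (IDP2, 0.62 ± 0.26) had an unadjusted p under 0.05.

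Nitrogen catabolite genes share the TOR input with the Rtg proteins. Of 9 tested in PSD1, 1 rose and 3 fell, beside 29.7% and 26.9% of all genes. DAL80, a repressor of that group, averaged 16.3 ± 2.07 CPM in PSD1, 14.4 ± 1.99 CPM in pdr3∆ PSD1, 7.75 ± 1.46 CPM in V5-PSD1 and 9.55 ± 1.56 CPM in the empty vector. It rose by 0.79 ± 0.13 in PSD1 (adjusted p = 4.03e-05) and by 0.62 ± 0.13 in pdr3∆ PSD1 (adjusted p = 0.000596), and was lower in V5-PSD1 than in PSD1 (−1.09 ± 0.13, adjusted p = 5.09e-06). The other calls in PSD1 were small, with GLN3 (the activator) at −0.26 ± 0.10, MEP1 (an ammonium permease) at −0.25 ± 0.07 and GZF3 (a repressor) at −0.21 ± 0.07. GLN3 was lost, with adjusted p up to 0.0745, without empty-vector replicate 1, 3 or 4 or PSD1 replicate 1 or 2. Without both of these PSD1 libraries GLN3 was at −0.12 (adjusted p = 0.237) and GZF3 at −0.13 (adjusted p = 0.0585). In pdr3∆ PSD1 MEP1 fell by 0.25 on the log2 scale (SE 0.07), for 1 higher and 1 lower, beside 26.1% and 21.4% of all genes. In V5-PSD1 none passed in edgeR or DESeq2 and 2 (GZF3 at −0.16 ± 0.07 and DAL80 at −0.30 ± 0.14) had an unadjusted p under 0.05.

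Over all 6 lists, 46 genes were tested. Between pdr3∆ PSD1 and PSD1 none of the 46 passed in edgeR or DESeq2 and none had an unadjusted p under 0.05. The smallest unadjusted p-values were 0.0678 for KOG1 (0.15 ± 0.08) and 0.0875 for GZF3 (0.11 ± 0.06). Between V5-PSD1 and PSD1, 10 were higher and 7 lower, beside 20.1% and 20.3% of all genes. Mitochondrial genome transcripts cannot be read from these polyA libraries. The 8 listed genes of the mitochondrial genome had 0 to 16 counts in a library, and ATP8 and VAR1 had 0 in every library.

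The 8 genes did not move together across libraries. Over 22 libraries that share depth, groups and library sets, Pearson's r of log2 CPM between the 28 pairs ran from −0.33 to 0.76, with a median of 0.07. The highest was between PYC1 and RTG1 (0.76, and 0.76 for deviations from the means of group by library series), the next between DLD3 and ATO3 (0.71 and 0.85), and CIT2 with DLD3 was at 0.59 and 0.43. Among 5372 annotated genes with a mean of at least 10 CPM, the 3 most like CIT2 were YAT2 (a carnitine acetyltransferase, r = 0.71), YMR265C (0.71) and MET6 (methionine synthase, 0.70). For DLD3 they were ALG12 (a mannosyltransferase of protein glycosylation, 0.91), PMU1 (0.88) and AAT1 (mitochondrial aspartate aminotransferase, 0.88). For PYC1 they were DYN1 (the dynein heavy chain, 0.87), MDM1 (0.85) and COS111 (0.84). For ATO3 they were HIS1 (the first enzyme of histidine synthesis, 0.90), GPD2 (glycerol-3-phosphate dehydrogenase, 0.87) and SOK2 (a transcription factor, 0.85). The values within groups and series were close to these for DLD3 (0.84 to 0.88), PYC1 (0.86 to 0.89) and ATO3 (0.93 to 0.95). Such deviations keep the differences between library sets and single libraries. HIS1, GPD2 and SOK2, like ATO3, were highest in library set 3 in every group. DYN1, like PYC1, was lowest in PSD1 replicates 1 and 2 (77.3 and 77.5 CPM). Whether the likeness, or the r of DLD3 with ATO3, rests on these few libraries was not tested. The genes like DLD3 also fell in PSD1, where ALG12 changed by −0.26 ± 0.08 (adjusted p = 0.0113), PMU1 by −0.33 ± 0.10 (adjusted p = 0.00778) and AAT1 by −0.35 ± 0.11 (adjusted p = 0.0108), over the same libraries on which the likeness was measured.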

How the data were processed

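PolyA RNA-seq of 22 yeast libraries was read from the authors' deposited expected counts per gene and deposited log2 values (FPKM plus 1). The submitters' processing notes name the sacCer3 build, SAMtools 1.3, RSEM 1.3.0 and STAR 2.5.3a. Which annotation was used, and whether counting used the strand, is not given in the sources used here, so reads of overlapping or antisense genes may be mixed. The library number, not the replicate number, assigned 2 count columns whose replicate number did not match the label. Of 7126 entries, 1078 (1.68% to 3.05% of counts) matched no gene of the reference annotation and stayed in the fit.

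Expected counts were rounded to whole numbers, filtered with filterByExpr, scaled by TMM and fitted in edgeR 4.0.16 (R 4.3.3) with group and library series as terms over all 22 libraries. The library series is the leading digit of the library number in the labels (12 libraries in series 5 and 10 in series 6). Quasi-likelihood p-values were adjusted by Benjamini-Hochberg over 6278 genes at 0.05, two-sided, and every adjusted p in the text comes from this fit unless another is named. Intervals use the t distribution with the fit's degrees of freedom. CPM compares groups, and FPKM compares genes. DESeq2 1.42.0 and limma 3.58.1 gave alternatives, and the code was tested on simulated data. No library was found to be a copy of another in 50 pairs of replicates.

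The genes and lists were chosen with earlier results of these data known. Against the empty vector, the text names up to 4 called genes of largest change from each list, or at most the 2 of smallest p. The paralogs and the 3 genes most like each target are named too. IDH1, BMH1, TOR2, ICL1 and MLS1 in PSD1 lie outside that rule and were chosen after their values were seen. Calls between V5-PSD1 and PSD1 are named only in part.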

Additional observations from a re-analysis of the deposited data

Results flagged for a closer look

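Of 32 sets of values (8 genes in 4 groups), 3 held a library far from the rest of its group, where chance gives about 1 in 20. All 3 were the highest ATO3 library: 97.2 CPM in PSD1 replicate 2, 119 CPM in pdr3∆ PSD1 replicate 2 and 128 CPM in V5-PSD1 replicate 3. They belong to library set 3, whose empty-vector library had 90.9 CPM of ATO3. Without this set the ATO3 change in PSD1 over the empty vector was −0.25 (edgeR's quasi-likelihood test, adjusted p = 0.381).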

How the results depend on the processing

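In PSD1 against the empty vector, 1 of the 8 genes was lower. The count was 2 with DESeq2, with each of 3 limma fits on log2 FPKM and with the length trend removed, 3 with PSD1 replicate 6 in a library set of its own, and 0 in library series 5 alone. It ranged from 1 to 3 when single libraries were left out (3 without empty-vector replicate 5, and 2 without PSD1 replicate 3 or 6). In pdr3∆ PSD1 against the empty vector, 2 were lower. That count was 1 with each of the 3 limma fits and in series 6 alone, and 0 in series 5 alone. It ranged from 0 to 2 without single libraries (0 without empty-vector replicate 3, and 1 without empty-vector replicate 1 or 2 or pdr3∆ PSD1 replicate 3 or 6). In V5-PSD1 against PSD1, 0 were higher. That count was 2 with the library set as a block (also with PSD1 replicate 6 in a set of its own), 1 in series 6 alone and 1 without library set 3. It ranged from 0 to 1 without single libraries (1 without PSD1 replicate 2 or 3 or V5-PSD1 replicate 1). The other 7 counts of higher or lower genes did not change in any of 19 alternatives or without any single library. With the length trend removed, TOR1 and TOR2 turned to 0.11 and 0.26 in PSD1 against the empty vector (limma, adjusted p = 0.298 and 0.0294). That fit also changes the method from edgeR to limma. Limma on log2 CPM without that step kept the calls of BMH1, BMH2, KOG1 and GLT1 in PSD1 against the empty vector. With the length trend removed these calls were lost. The slope on gene length moved with the groups, so removing it can also take out group differences that follow length. The cause of the shifts in this section was not tested, and the series fits use fewer libraries.

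Deviations of same-numbered libraries correlated from −0.13 to 0.61 (median 0.21, 31 pairs), beside a median of −0.04 over 150 pairs with different numbers. Not every pair exceeded 0.1, and the labels do not state that the numbers pair the samples, so the main fit holds no block for them. By library set the medians were 0.20 within sets and −0.05 between sets. The main fit holds no block for the sets either, so its counts leave out any pairing by set. With the replicate block, 2 genes were lower in PSD1, as CIT2 joined DLD3 at −0.46 (adjusted p = 0.0347).

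Over all genes, V5-PSD1 against the empty vector gave 13 to 338 higher and 1 to 115 lower genes across the alternatives. The alternatives without library set 3, with PSD1 replicate 6 in a set of its own, without PSD1 replicates 1 and 2, and with the length trend removed, and the test of series by group, were chosen after seeing the data.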
